A study of Mus musculus with 12 samples.

Results

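The peptidylarginine deiminases are the 5 mouse genes Padi1, Padi2, Padi3, Padi4 and Padi6, and they were measured in the mammary gland of mice that lacked the progesterone receptor (null) and of wild type mice. Members were all probe sets annotated to the family, which gave 5 probe sets, 1 for each gene, of 45037 on the array that are not controls. The family was selected on the measured values of these arrays, namely the differences of Padi2 and Padi4 between null and wild type glands, so the values of the members are a description with no test. All mice were ovariectomized BALB/c females, 10 weeks old, treated subcutaneously with 17β-estradiol (100 ng), to which progesterone (2.5 ug) was added after 24 h while 17β-estradiol went on. The groups were null and wild type mice at 24 h after progesterone was added, and null and wild type mice at 8 h after it. Each group had 3 arrays, each of RNA pooled from 3 mice. No group went without progesterone, the hours of 17β-estradiol also differed between the 2 times, and the labels do not describe the null allele or say in which cells it acts. The study asked which genes depend on the receptor after a short exposure to progesterone.

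Peptidylarginine deiminases are calcium-dependent enzymes that convert arginine within proteins to citrulline, which removes a positive charge and can change how the protein folds or binds. PAD2, from Padi2, occurs in many tissues, among them brain, muscle and secretory epithelia, and in human breast cancer cells it has been linked to citrullination of histones at estrogen receptor targets. PAD4, from Padi4, is known for histone citrullination in neutrophils, where it takes part in the release of chromatin. PAD1 and PAD3 act mainly in the epidermis and the hair follicle, and the protein of Padi6 is needed in oocytes and early embryos. In the mouse the 5 genes lie side by side on chromosome 4, in the order Padi6, Padi4, Padi3, Padi1 and Padi2.

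The bases just before Padi2 and Padi4 are shown because these were the 2 members whose messages differed between groups by much, and together. Both are from RefSeq on GRCm38.p6 and are written 5′ to 3′ on the strand of the gene. That of Padi2 is chr4:140906110-140906335 on the + strand (226 bases), and that of Padi4 is chr4:140774240-140774453 on the - strand (214 bases). The promoter table gives 250 bases before 1 start per entry, and for Padi2 and Padi4 the gene record begins earlier, so the last 24 and 36 bases of those windows lie inside the genes and are not shown. For Padi1, Padi3 and Padi6 the window ends at the gene record's start. Capitals mark matches to the motifs named below.

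Padi2: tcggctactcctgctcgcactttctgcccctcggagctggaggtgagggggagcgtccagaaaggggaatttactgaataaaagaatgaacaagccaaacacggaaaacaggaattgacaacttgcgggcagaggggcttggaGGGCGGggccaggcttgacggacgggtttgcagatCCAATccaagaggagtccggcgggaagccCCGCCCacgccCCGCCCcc

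Padi4: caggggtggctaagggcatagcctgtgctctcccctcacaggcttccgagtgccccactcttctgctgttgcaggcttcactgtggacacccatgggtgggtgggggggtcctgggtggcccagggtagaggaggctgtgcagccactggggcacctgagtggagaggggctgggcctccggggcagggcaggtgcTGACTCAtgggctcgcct

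In all, 6 motifs were searched on both strands in the 250-base windows of 32851 RefSeq promoters. The AP-1 motif TGANTCA was present 1 time in Padi4, starting at position -18 with -1 the base before the gene record, and 6.75% of all promoters held it. The Sp1 motif GGGCGG matched 3 times in Padi2, the first time at -83, and the NF-Y motif CCAAT matched 1 time, at -48. All promoters held these at shares of 32.7% for Sp1 and 33.8% for NF-Y. The estrogen response element, GGTCA and TGACC with 3 bases between, was found in 0.0639% of promoters, and its single arm GGTCA, which every full element contains, in 35.2%. A progesterone receptor element was searched as ACA and TGT with 3 bases between, then any base and C, and was found in 2.61%. None of these 3 was in the window of any of the 5 Padi genes. Padi1 held none of the 6 motifs, Padi3 held 1 Sp1 and 2 NF-Y matches, and Padi6 held 1 of each. A match is only a run of letters, and a missing one concerns this window alone. GC content of the 250-base windows was 61.6% for Padi2 and 66.0% for Padi4, against a median of 52.4% over all promoters.

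At 8 h, Padi2 and Padi4 stood far above every other array in the null glands alone. Values are on the log2 scale as deposited, where a difference of 1 is 2-fold. The array medians lay between 5.84 and 5.91, and correlations between arrays of 1 group ranged from 0.965 to 0.993 over the 23709 probe sets that were tested, those that 3 or more arrays put above their own median. The tissue was as labelled by its markers, with Krt8 and Krt18 of luminal cells, Krt14 and Krt5 of basal cells and Adipoq of fat, in their brightest probe sets, all above the array median in every group. Of the 3 probe sets for Pgr, the targeted gene, the brightest was at 7.46 ± 0.35 in null and 7.82 ± 0.29 in wild type glands at 24 h, and at 8.89 ± 0.29 in null and 9.94 ± 0.06 in wild type glands at 8 h (SD, n = 3 each). Another ran the other way, at 6.38 ± 0.17 in null and 4.28 ± 0.24 in wild type glands at 24 h and at 6.84 ± 0.07 in null and 4.87 ± 0.22 in wild type glands at 8 h. The third was too low to be tested, and where the probes lie relative to the null allele is not given in the sources used here, so Pgr does not check the labels.

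Padi2 was measured above the array median on all 12 arrays. At 8 h its 3 null pools had 8.74, 8.62 and 8.91, against 6.69, 6.74 and 6.69 in the wild type pools. Every null pool was higher than every wild type pool, and the lowest null pool at 8 h lay 1.82 above the highest of the other 9 arrays. The group means were 8.76 ± 0.14 in null and 6.71 ± 0.03 in wild type glands (SD, n = 3 each), a difference of 2.05 (SE 0.15) or 4.14-fold. At 24 h the null pools had 6.81, 6.55 and 6.51, against 6.69, 6.27 and 6.004 in wild type, and the groups overlapped. The means at 24 h were 6.62 ± 0.16 in null and 6.32 ± 0.34 in wild type glands, a difference of 0.30 (SE 0.15) or 1.24-fold. In wild type glands the 24 h mean minus the 8 h mean was -0.39, 1.31-fold, and the pools of the 2 times did not overlap, although the nearest were both at 6.69. In null glands the 24 h mean minus the 8 h mean was -2.14, and every 24 h pool lay below every 8 h pool, 4.39-fold in the mean. The difference at 24 h minus that at 8 h was -1.74 (SE 0.22). In order of mean level the groups ran null at 8 h, wild type at 8 h, null at 24 h and wild type at 24 h, and neighbours among the last 3 overlapped.

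Padi4 had 7.18, 7.50 and 7.51 in the null pools at 8 h, against 4.73, 4.66 and 5.01 in the wild type pools. Again every null pool was higher, and the lowest null pool at 8 h lay 1.40 above the highest of the other 9 arrays. The means were 7.40 ± 0.19 in null and 4.80 ± 0.19 in wild type glands (SD, n = 3 each), a difference of 2.60 (SE 0.24) or 6.06-fold. At 24 h the null pools had 4.72, 4.79 and 4.995, against 4.98, 4.68 and 5.79 in wild type, with overlap and 1 wild type pool above all others. The means at 24 h were 4.83 ± 0.14 in null and 5.15 ± 0.57 in wild type glands, a difference of -0.32 (SE 0.24) that became 0.0012 without wild type pool 3. In null glands the 24 h mean minus the 8 h mean was -2.57, 5.92-fold, without overlap, and in wild type glands the 24 h mean was 0.35 above that at 8 h, with overlap. The genotype difference at 24 h minus that at 8 h was -2.92 (SE 0.34). The mean levels ran from null at 8 h through wild type at 24 h and null at 24 h to wild type at 8 h, and the last 3 groups overlapped one another. Padi4 lay above the array median only on the 3 null arrays at 8 h, so it passed the filter only through the group in which it was high. On the other 9 arrays it lay below the median, so its fold is set against values at the low end of the array.

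**Figure D1:**
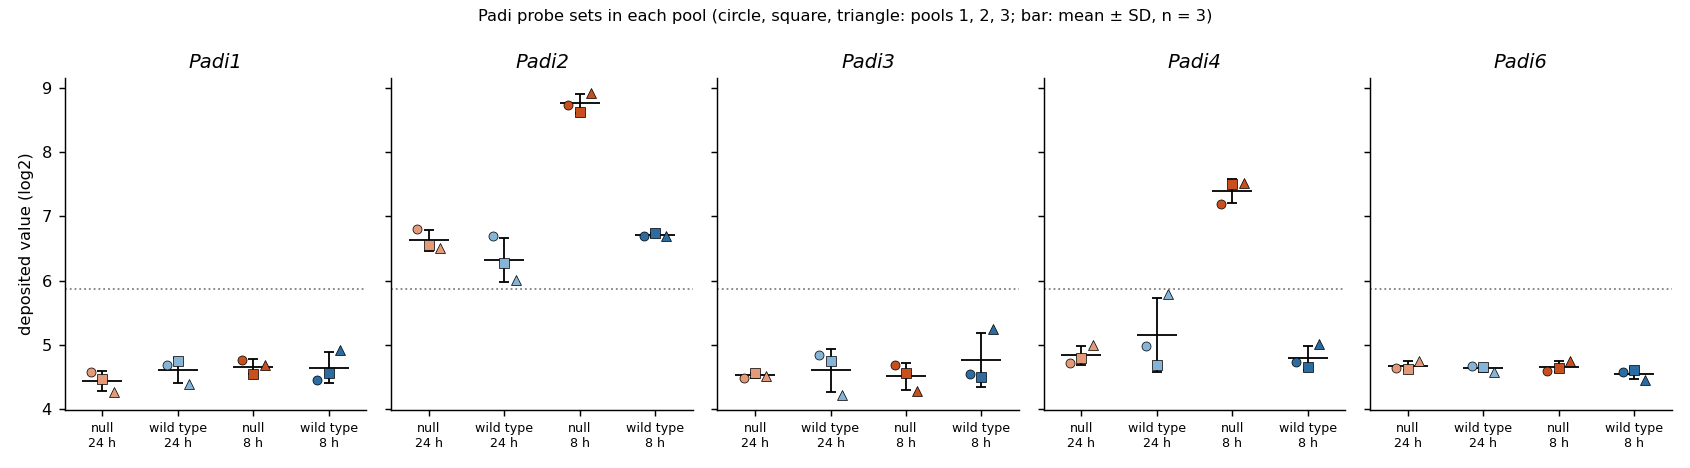
Deposited log2 value (y axis) of each Padi probe set in the 12 pools, by group (x axis); points are pools, bars are the mean ± SD (n = 3), and the dotted line is the middle of the array medians. Padi2 and Padi4 are high in the 3 null pools at 8 h, between 8.62 and 8.91 for Padi2 and between 7.18 and 7.51 for Padi4.

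The other members were below the array median on all 12 arrays, too low to be tested, and their values moved little. Padi1, of the epidermis, ranged from 4.27 to 4.92 over the 12 arrays. Its null minus wild type differences were -0.16 at 24 h and 0.01 at 8 h, with an SE of 0.15 from its own spread. Padi3, of the hair follicle, ranged from 4.22 to 5.25, and its null minus wild type differences were -0.08 at 24 h and -0.25 at 8 h (SE 0.23). Padi6, of the oocyte, ranged from 4.45 to 4.75, and its differences were 0.04 at 24 h and 0.11 at 8 h (SE 0.06). In these 3 genes the groups overlapped in both genotype comparisons and both time comparisons. Padi3 and Padi1, which lie between Padi4 and Padi2 in the cluster, thus showed no difference beyond their spread, and small differences at such low levels may not be detectable.

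**Figure D2:**
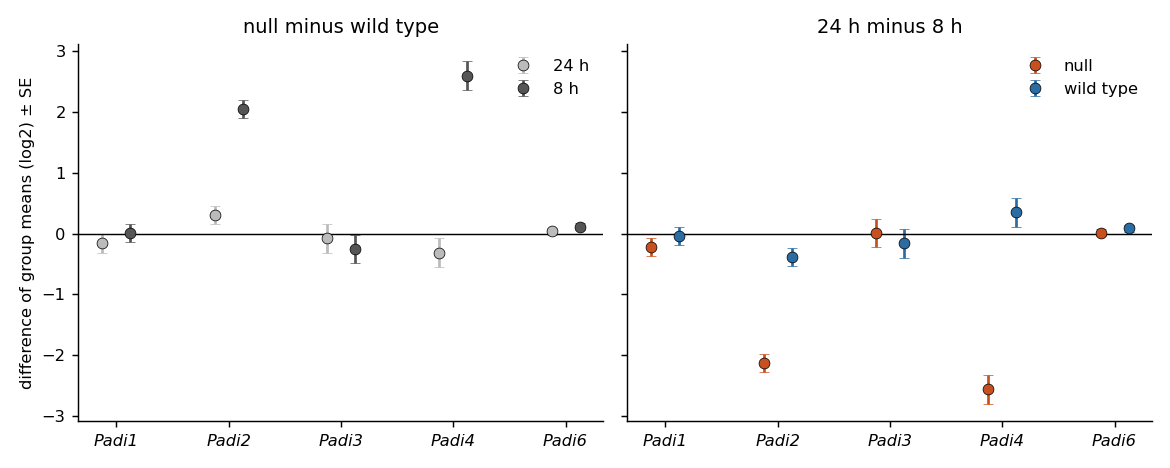
Difference of group means on the log2 scale (y axis, ± SE) for each Padi gene, null minus wild type at 24 h and 8 h on the left, and 24 h minus 8 h in null and wild type glands on the right. Padi2 and Padi4 are at 2.05 and 2.60 for the genotypes at 8 h, and at -2.14 and -2.57 for time in null glands.

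The members' calls stand here beside the share of all tested probe sets called by limma at an adjusted p below 0.05, and nothing is read from them, since these contrasts chose the members. For null against wild type at 24 h, 1.11% of all probe sets were called, and 0 of the 2 tested members. At 8 h, 3.07% were called, and both Padi2 and Padi4 as higher in null glands. For the change of the genotype difference, 24 h against 8 h, 0.143% were called, and both members as lower. For 24 h against 8 h, 4.4% were called in null glands, and both members as lower, and 5.22% in wild type glands, and neither. The lists below count genes, with 1 probe set each, and of 12002 genes 1.3% were called at 24 h and 3% at 8 h. These shares were 0.133% for the change, 4.57% for time in null and 5.27% for time in wild type glands. With a replicate block on the pool numbers, a pairing that the labels do not state, 1667 probe sets were called for time in null glands, against 1044 without it.

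The genes next to the cluster did not share the high values of Padi2 and Padi4. Of the 10 protein-coding genes on each side, 19 were on the array with a probe set of their own and 14 were tested. At 8 h, 0 of the 14 were called higher in null glands and 2 were called lower, against 3% of all genes called in either direction. The median null minus wild type difference of the 14 was -0.06, against -0.01 over all 12002 genes tested. The gene adjacent to Padi6, Rcc2, a regulator of cell division, differed by -0.21, null minus wild type (adjusted p = 0.533, limma). The gene adjacent to Padi2, Sdhb, a subunit of mitochondrial complex II, differed by 0.34 (adjusted p = 0.112, limma).

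The 2 called neighbours both lay on the Padi6 side, with Rcc2 and 1 or more further genes between. Aldh4a1, a mitochondrial enzyme of proline breakdown, had 8.04, 7.65 and 7.66 in null pools at 8 h, against 8.96, 8.83 and 8.70 in wild type pools. Null minus wild type was -1.04 (2.06-fold lower, SE 0.12, adjusted p = 0.000917, limma). Igsf21, a cell surface protein of the immunoglobulin superfamily, had 6.81, 6.73 and 6.68 in null pools at 8 h, against 7.47, 7.73 and 7.49 in wild type pools. Null minus wild type was -0.82 (1.77-fold lower, SE 0.12, adjusted p = 0.0029, limma). Both calls held without any single array, and in both genes the null and wild type pools did not overlap.

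At 24 h, 0 of the 14 neighbours were called by limma, with 3 at an unadjusted p under 0.05 and a median difference of -0.05. For time in null glands Igsf21 was 0.87 higher at 24 h than at 8 h (adjusted p = 0.00282, limma), the only one of the 14 called. In wild type glands Aldh4a1 fell by 0.64 at 24 h (adjusted p = 0.0165, limma) and Emc1, a subunit of a membrane insertion complex, fell by 0.36 (adjusted p = 0.0205, limma). Each of these calls in wild type glands was lost without any of 3 single arrays, namely wild type pool 3 at 24 h and wild type pools 1 and 2 at 8 h (adjusted p up to 0.082 for Aldh4a1 and 0.102 for Emc1, limma). The change of the genotype difference was called for Igsf21 alone, at 1.00 (adjusted p = 0.0477, limma), and this call was lost when any of 11 arrays was left out and with a replicate block (adjusted p = 0.0796).

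**Figure D3:**
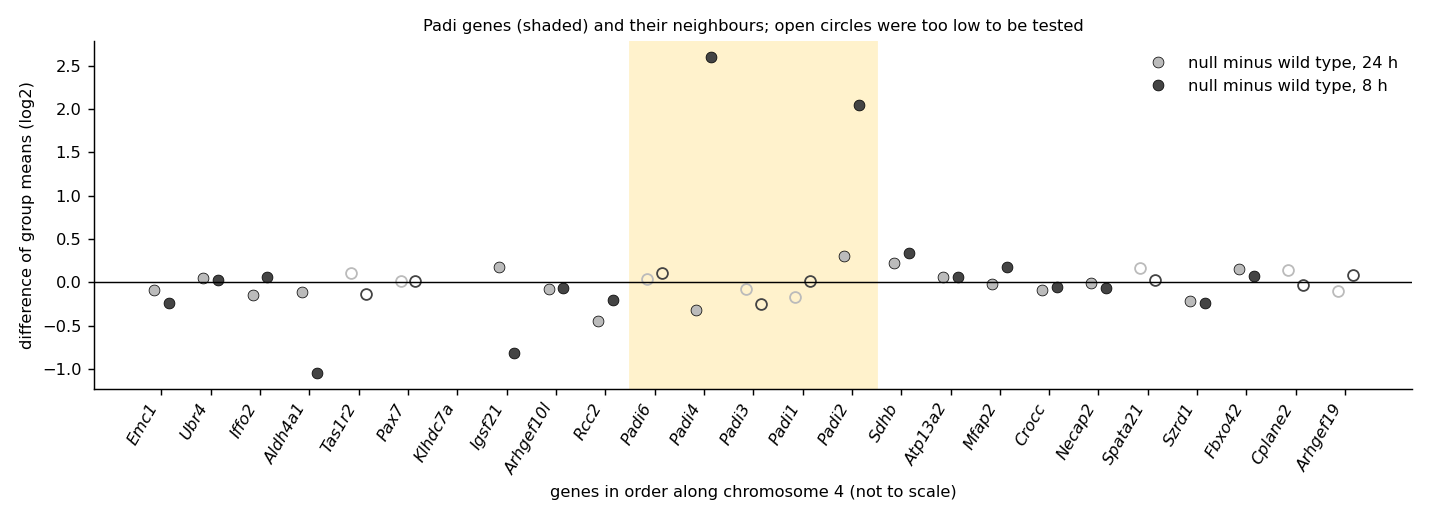
Null minus wild type difference on the log2 scale (y axis) at 24 h and 8 h for the 5 Padi genes (shaded) and 10 genes on each side, in chromosome order (x axis, not to scale); Klhdc7a has no probe set of its own. Padi4 and Padi2 stand at 2.60 and 2.05 at 8 h, and among their neighbours the lowest is Aldh4a1 at -1.04.

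Genes whose pattern was most like that of Padi2 or Padi4 were taken as the 5 with the highest Pearson correlation over the 12 arrays, out of 12000 genes. These are descriptions across arrays that share the 3 null arrays at 8 h. For Padi2 they were Cdkn1c, an inhibitor of the cell cycle (r = 0.96), Kif5c, a kinesin motor (r = 0.95), Bicd2, a dynein adaptor (r = 0.94), Pdgfb, a growth factor chain (r = 0.94), and Papss1, which makes the sulfate donor of the cell (r = 0.93). Over the 9 arrays outside that group these r fell between 0.11 for Papss1 and 0.62 for Cdkn1c. Kif5c was alone among the 5 in a difference of like size, with pools at 9.03, 8.60 and 8.84 in null and 6.65, 6.52 and 6.81 in wild type glands at 8 h, a mean difference of 2.16. At 24 h it was at 7.41, 6.79 and 6.81 in null and 5.95, 5.98 and 6.08 in wild type glands, and the groups did not overlap at either time. The mean differences at 8 h of the other 4 ran from 0.12 for Papss1 to 0.62 for Cdkn1c.

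For Padi4 the 5 were Epgn, a ligand of the epidermal growth factor receptor family (r = 0.97), Slc5a8, a transporter of monocarboxylates (r = 0.95), Agps, an enzyme of ether lipid synthesis (r = 0.93), Nck2, an adaptor of tyrosine kinase signals (r = 0.91), and Has2, which makes hyaluronan (r = 0.91). Over the 9 other arrays their r were between 0.58 for Nck2 and 0.78 for Has2. Padi4 lay below the array median on all of these, with wild type pool 3 at 24 h (5.79) apart from the rest (5.01 or lower). How far these r rest on that pool was not tested. Epgn had 6.91, 7.30 and 7.74 in null pools at 8 h, against 4.66, 4.91 and 5.03 in wild type pools, a mean difference of 2.45. At 24 h it was at 4.79, 4.68 and 4.93 in null and 5.23, 5.30 and 5.37 in wild type glands, so null lay below wild type there without overlap. On the 9 arrays outside the null group at 8 h, Epgn lay below the array median. Like Padi4, it passed the filter only through the group in which it was high, and its difference is set against values at the low end. Ranked by Spearman's rho in place of r, 0 of the 5 for Padi2 and 1 of the 5 for Padi4 were again among the first 5.

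**Figure D4:**
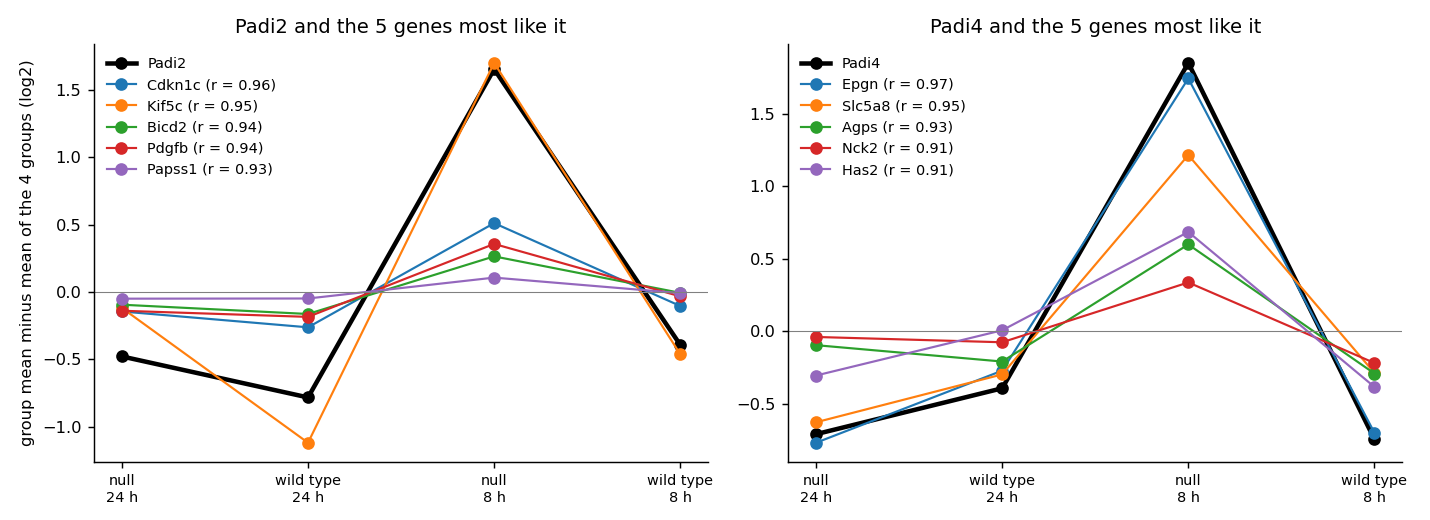
Group mean minus the mean of the 4 groups on the log2 scale (y axis) for Padi2 (left) and Padi4 (right), each with its 5 most correlated genes, by group (x axis). Kif5c and Epgn have differences close in size to those of the Padi genes at 8 h, 2.16 and 2.45, and the other lines are flatter. Epgn, like Padi4, lies below the array median outside the null group at 8 h.

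Proteins that the enzymes are known to citrullinate were given as a list of 27, of which 26 were on the array and 20 were tested. Over all genes tested, 3% were called at 8 h, in either direction. At 8 h, 2 of the 20 were called higher in null glands and 0 lower, and the median difference was -0.09, against -0.01 over all genes. Both were keratins of luminal epithelium, Krt8 and Krt18. Krt8 had 11.37, 11.27 and 11.28 in null pools, against 10.51, 10.496 and 10.51 in wild type pools. It was 0.80 higher in null glands (1.74-fold, SE 0.11, adjusted p = 0.00316, limma), without overlap. Krt18 had 11.12, 10.93 and 10.95 in null pools, against 10.502, 10.67 and 10.64 in wild type pools, and was 0.39 higher (adjusted p = 0.0394, limma). The Krt18 call was lost when any of 8 arrays was left out, with adjusted p up to 0.178. Vim, the intermediate filament of mesenchymal cells, differed by 0.14, null minus wild type (adjusted p = 0.667, limma), and Tchh, a hair follicle protein, by -2.93 with wide spread (adjusted p = 0.254, limma). Krt1, Flg, Gfap, Fga, Fgb and Ing4 were too low to be tested.

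At 24 h, 1 of the 20 substrates was called, and the median difference was -0.17. Fgg, the fibrinogen gamma chain, had 6.51, 6.64 and 5.47 in null pools, against 7.67, 8.83 and 8.66 in wild type pools. Null minus wild type was -2.18 (4.53-fold lower, SE 0.36, adjusted p = 0.0137, limma), and the call was lost without wild type pool 3 (adjusted p = 0.0797). For the change of the genotype difference 0 were called by limma, with 4 at an unadjusted p under 0.05. For time in null glands 0 were called, with 5 at an unadjusted p under 0.05, and 3 were called with a replicate block. In wild type glands 1 was higher at 24 h than at 8 h, Krt8, and 2 were lower, Hsp90b1 and Mbp. These 3 calls were lost in 8, 10 and 9 of the 12 fits without an array.

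Arginine methyltransferases, which act on the same residue, were listed with proteins that read or remove methylarginine, and 12 of the 13 listed were tested. The median null minus wild type difference was -0.11 at 24 h and -0.12 at 8 h. At 8 h 1 was called, Ddah1, which breaks down free methylarginines. It had 7.81, 7.55 and 7.59 in null pools, against 8.21, 8.06 and 8.43 in wild type pools, a difference of -0.59 (adjusted p = 0.0174, limma) that was lost without null pool 2 or 3 or without wild type pool 1 or 3 of 8 h (adjusted p up to 0.0864). At 24 h 1 was called, Prmt1, the main arginine methyltransferase of most cells, at a null minus wild type difference of -0.50 (adjusted p = 0.0464, limma). That call was lost in 10 of the 12 fits without an array. For either time comparison and the change of the genotype difference 0 were called by limma, with 5 at an unadjusted p under 0.05 for time in null glands and 1 for the change, and 1 was called for time in null glands with a replicate block.

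Factors reported to regulate Padi genes formed a list of 19, among them the estrogen receptor and AP-1 subunits, and 14 were tested. The median null minus wild type difference was -0.16 at 24 h and 0.0078 at 8 h, against -0.01 over all genes at either time. At 8 h, 0 were called by limma, with 2 at an unadjusted p under 0.05. Esr1, the estrogen receptor, differed by -0.28, null minus wild type (adjusted p = 0.276, limma), and Fos, an AP-1 subunit, by 0.69 (adjusted p = 0.188, limma). At 24 h 2 were called lower in null glands, both of AP-1. Jun had 9.16, 9.21 and 8.97 in null pools at 24 h, against 9.64, 9.69 and 9.97 in wild type pools, a difference of -0.65 (adjusted p = 0.018, limma). The Jun call was lost without null pool 3 or wild type pool 3 of 24 h (adjusted p up to 0.0836). Junb had a null minus wild type difference of -0.60 at 24 h (adjusted p = 0.0488, limma), and its call was lost in 10 of the 12 fits without an array.

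Over time in null glands, 4 of the 14 regulators fell and 0 rose. Of all 12002 genes 4.57% were called, 460 as lower at 24 h and 88 as higher, so most calls went down there too. The median of the 14 regulators was -0.27, against -0.02 over all genes. Whether these changes bear on the Padi genes was not tested. Fosl2, an AP-1 subunit, had 8.25, 8.45 and 7.99 at 24 h, against 9.17, 9.29 and 9.38 at 8 h. It fell by 1.05 (2.07-fold, adjusted p = 0.0026, limma). Jun fell by 0.72 (adjusted p = 0.00767, limma). Junb fell by 0.65 (adjusted p = 0.0178, limma), and Hif1a, the hypoxia factor, fell by 0.81 (adjusted p = 0.0131, limma). The calls of Junb and Hif1a were each lost without null pool 2 at 24 h or null pool 3 at 8 h (adjusted p up to 0.0725). In wild type glands Fosl2 also fell, by 0.66 (adjusted p = 0.0197, limma), the only regulator called there. That call was lost without wild type pool 2 at 24 h or wild type pool 1 or 3 at 8 h (adjusted p up to 0.085). For the change of the genotype difference 0 were called by limma, with 2 at an unadjusted p under 0.05, and Jun was nearest at -0.86 (adjusted p = 0.0936).

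Markers of the cells that could carry these messages also differed between groups, and in such whole-gland samples fewer cells of a type and less RNA per cell cannot be told apart. The part of cell makeup in the Padi values was not tested. Neutrophils are the cells best known for PAD4, and the summed linear level of the 12 neutrophil genes on the array was 1958 to 2425 in null glands and 2405 to 2919 in wild type glands at 8 h, with a narrow overlap. At 24 h it was 1719 to 2219 in null and 1890 to 2760 in wild type glands. Ltf weighs most in such a sum. Averaged over the genes, each centred on its own mean log2 value, the groups did not overlap at 8 h. That average was -0.15 to -0.001 in null and 0.07 to 0.20 in wild type glands. At 24 h the averages overlapped, at -0.07 to -0.01 in null and -0.09 to 0.02 in wild type glands. Of the 12, 7 were too low to be tested, among them Elane, Mpo and Camp of neutrophil granules. S100a8, an abundant calcium-binding protein of neutrophils, had 6.998, 7.66 and 7.26 in null pools at 8 h, against 8.35, 8.72 and 9.01 in wild type pools, a difference of -1.39 (adjusted p = 0.00749, limma). The other 4 tested were not called at 8 h, with null minus wild type differences of -0.14 for S100a9, -0.12 for Ltf, the brightest of the list, 0.07 for Csf3r and -0.48 for Prtn3 (adjusted p from 0.299 to 0.892, limma).

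Luminal epithelial genes were summed over 15 genes. At 8 h the sums were 12172 to 13903 in null glands and 10606 to 11576 in wild type glands, without overlap. The brightest genes weigh most in such a sum, and the mean of the centred log2 values of the same genes overlapped at 8 h, at -0.05 to 0.23 in null and -0.05 to 0.04 in wild type glands. At 24 h they were 9780 to 11695 in null glands and 11332 to 14201 in wild type glands. Of 13 tested, 3 were called higher at 8 h (Krt8, Krt18 and Cldn4) and 3 lower at 24 h (Cdh1, Cldn3 and Cldn7). Of all genes, 3% were called at 8 h and 1.3% at 24 h, in either direction. At 8 h, 6 of the 13 differences were above 0, and among the others were Elf5 at -0.76, Cldn3 at -0.43 and Esr1 at -0.28, none of them called. Csn2 and Wap, the milk genes of this list, were too low to be tested. Basal epithelial sums over 10 genes were 10001 to 11776 in null glands and 8844 to 11569 in wild type glands at 8 h, with 0 of 10 called by limma and 0 at an unadjusted p under 0.05. At 24 h they were 7405 to 8311 in null and 9060 to 11928 in wild type glands, with 1 called lower in null, Trp63.

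Among the remaining lists, 3 of 7 brown fat genes (Ucp1, Cidea and Fabp3) were called higher in null glands at 8 h. The share of all genes called at 8 h was 3%, in either direction, and it stands beside each 8 h count here. Sums of the 7 brown fat genes at 8 h were 16087 to 26014 in null and 7250 to 11597 in wild type glands. At 24 h these sums overlapped, at 17476 to 27686 in null and 9384 to 21018 in wild type glands, and 0 were called by limma, with 1 at an unadjusted p under 0.05. The 8 h calls of Ucp1, Cidea and Fabp3 were lost when any of 3, 4 and 7 arrays was left out, in that order. Of 8 plasma cell genes tested, 2 were called higher in null glands at 8 h. They were Igha, by 2.90 (adjusted p = 0.000551, limma), and Jchain, by 2.83 (adjusted p = 0.0124, limma). Jchain narrowly missed the threshold when null pool 3 of 8 h was left out (adjusted p = 0.0501, limma). The sums of the 9 on the array overlapped at 8 h, at 7912 to 9683 in null and 7664 to 8519 in wild type glands. Xbp1, the brightest of the list, weighs most in that sum. The mean of the centred log2 values of the same 9 genes did not overlap at 8 h. It was -0.13 to 0.23 in null and -0.84 to -0.40 in wild type glands. At 24 h that mean overlapped, at 0.06 to 0.78 in null and -0.04 to 0.42 in wild type glands. Skeletal muscle sums over 12 genes were 1229 to 24431 in null and 19282 to 48851 in wild type glands at 8 h, with 0 called by limma and 2 at an unadjusted p under 0.05. Keratinocyte and hair follicle sums over 14 genes were 474 to 990 in null and 568 to 4451 in wild type glands, with 1 of 8 tested called, Tgm3, lower in null and lost without any of the 6 arrays of 8 h. Macrophage sums were 13139 to 21051 in null and 18329 to 25759 in wild type glands, with 0 of 12 called and 0 at an unadjusted p under 0.05. Adipocyte sums were 69600 to 72048 in null and 70053 to 73627 in wild type glands, with 0 of 7 called by limma and 1 at an unadjusted p under 0.05.

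**Figure D5:**
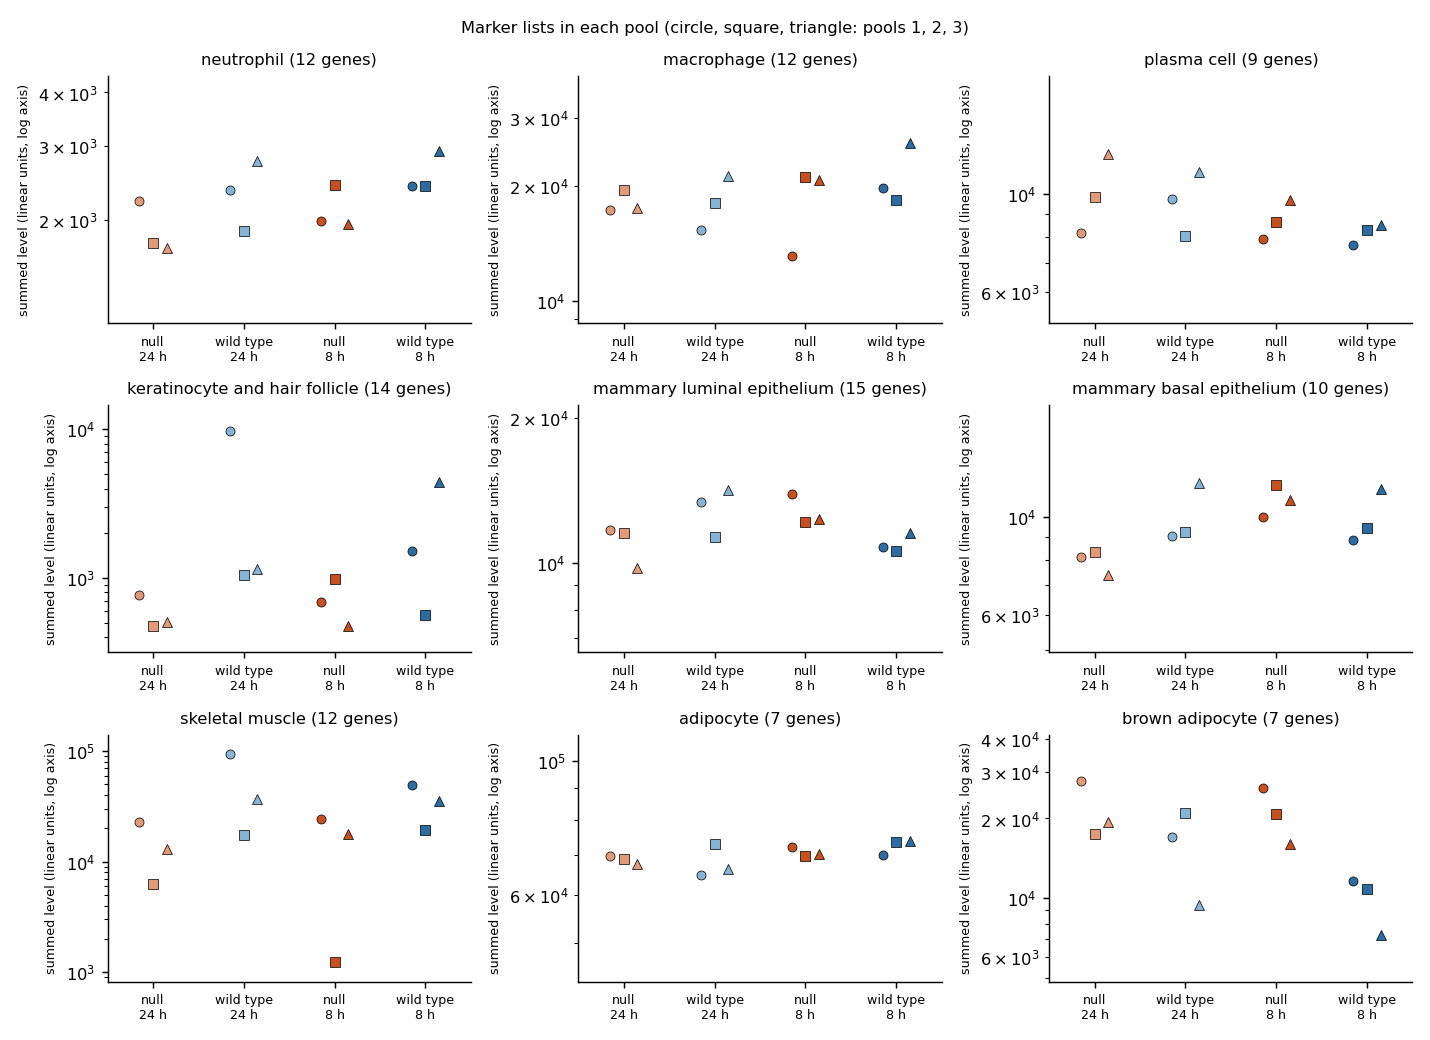
Summed linear level of 9 cell marker lists in each pool (y axis, log scale, 2 to the power of the deposited value) by group (x axis); each point is a pool. At 8 h the summed linear level of the luminal list, which its brightest genes dominate, is 12172 to 13903 in null and 10606 to 11576 in wild type pools. That of the neutrophil list, in which Ltf weighs most, is 1958 to 2425 in null and 2405 to 2919 in wild type pools.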

How the data were processed

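The authors deposited 1 table of log2 values for 12 Affymetrix arrays (45101 probe sets). The log2 scale was judged from its range, since the labels do not state it. MAS5 is named in the submitters' processing notes, without its role or version; how signals were summarized and normalized is not stated in the labels. Precision is limited by the number of arrays. Names came from the platform annotation, and the brightest probe set by mean stood for each gene. Probe sets above the array median on at least 3 arrays (23709) were fitted with limma 3.58.1 in R 4.3.3 (trended prior, 4 group means, 8 residual degrees of freedom) and adjusted by Benjamini-Hochberg over all of them, with 0.05 as the threshold. The fit was tested on simulated data. Contrasts were null minus wild type, and 24 h minus 8 h. The members, the gene lists and the naming rule (members, called list genes, flanking genes and the 5 most correlated genes) were chosen with earlier results of these data known. The labels call the pools biological replicates. Same-numbered null pools deviated together across the 2 times (r from 0.26 to 0.52 in 3 pairs), so the numbers may pair these samples. The labels state no pairing, and pools of different numbers were not compared. In the other comparisons at least 1 pair had r below 0.1. Single pairs there reached 0.45 (pool 1, time in wild type) and 0.43 (pool 3, genotype at 24 h). The main fit had no block, and the replicate block fitted 1 effect per number over all 4 groups. Promoters came from a RefSeq table of GRCm38.p6. Alternatives changed the filter, floor, normalization, prior, array weights, arrays fitted, replicate block and single arrays. Figures were drawn with matplotlib 3.10.9.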

Additional observations from a re-analysis of the deposited data

Results flagged for a closer look

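The null minus wild type difference at 24 h minus that at 8 h was called for 34 of the 23709 probe sets tested, among them Cldn4 and Igsf21 of the lists described here. For Padi2 this change was -1.74 on the log2 scale, and for Padi4 it was -2.92. Both are descriptions with no test, since the family was selected on these contrasts and Padi4 passed the filter only through the null arrays at 8 h. For Cldn4, a tight junction gene of the luminal list, the change was -0.89 (adjusted p = 0.0469, limma). This call was lost with a replicate block (adjusted p = 0.0796, limma) and in 10 of the 12 fits without an array. It was also lost without a filter, with the filter of 6 arrays, with quantile normalization and with a robust prior. For Igsf21, a neighbour of the Padi genes, the change was 0.997, with the losses given above and further losses in those same settings.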

How the results depend on the processing

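All 191 alternative values of the Padi2 and Padi4 differences moved by less than the spread between replicates (pooled SD 0.20 and 0.32). This was largely fixed in advance and is no check of the differences. A change of filter or prior, or the loss of an array outside the comparison, leaves a difference of group means as it is. The Padi4 difference at 24 h also counts as unmoved, although it went from -0.32 to 0.0012 without 1 array. Without each array in turn, the Padi2 difference was 1.97 to 2.12 at 8 h and 0.15 to 0.49 at 24 h, its change -1.90 to -1.56, time in null -2.23 to -2.06 and time in wild type -0.57 to -0.23; for Padi4 these were 2.53 to 2.71, -0.55 to 0.0012, -3.15 to -2.60, -2.67 to -2.51 and 0.03 to 0.59. Padi4 fails the filter of at least 6 arrays, where it has no value, and also the filter of 3 when a null array of 8 h is left out, where its value is the plain difference of means. Counts of calls moved more, and the cause was not tested. In the order 24 h genotype, 8 h genotype, change, time in null and time in wild type, leaving out arrays gave 118 to 694, 318 to 890, 7 to 37, 228 to 1197 and 234 to 1325 probe sets called. The neighbours gave 0 to 0, 2 to 2, 0 to 1, 1 to 1 and 0 to 2 calls, the substrates 0 to 2, 1 to 2, 0 to 1, 0 to 1 and 0 to 4, the regulators 0 to 2, 0 to 0, 0 to 0, 2 to 5 and 0 to 2, and arginine methylation 0 to 2 and 0 to 1 for genotype and 0 otherwise. Of the 5 genes most like each, 2 to 5 stayed for Padi2 and 3 to 5 for Padi4, and under Spearman's rho 0 and 1.

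Array weights called 685 probe sets for genotype at 24 h, 4017 at 8 h, 169 for the change and 5775 for time in null. They called 5 neighbours at 8 h, 2 for the change and 6 for time in null. Substrates called were then 3 at 24 h, 4 at 8 h, 2 for the change, 3 for time in null and 7 for time in wild type; methylation genes 2, 2 and 6 (24 h, 8 h and time in null); and regulators 3, 1 and 8 (8 h, change and time in null). A replicate block called 482 probe sets at 24 h and 1667 for time in null, and 2, 3 and 5 substrates (24 h, time in null and time in wild type), 1 methylation gene (time in null) and 2 regulators (time in wild type). It ended the calls of Igsf21 and Cldn4 for the change. With only the arrays of the groups compared, 75 probe sets were called at 24 h, 448 for time in null and 511 for time in wild type. That fit called 0 substrates, methylation genes or regulators at 24 h, 1 substrate for time in null, and 0 substrates and 1 neighbour for time in wild type. Without a filter there were 1 substrate at 8 h, 0 for time in wild type, 0 methylation genes and 1 regulator at 24 h, and 0 neighbours for the change. The filter of 6 arrays gave 21 probe sets and 0 neighbours for the change and 1 regulator at 24 h. Quantile normalization gave 1 substrate at 8 h, 1 for time in wild type, 0 neighbours for the change and 1 for time in wild type. A robust prior gave 1 substrate at 8 h, 0 methylation genes at 24 h and 0 neighbours for the change.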

Other observations

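Over the 9 arrays outside the null group at 8 h, Padi2 and Padi4 had a Pearson's r of -0.71 and a Spearman's rho of -0.5, given as a description of arrays from 3 groups, and without wild type pool 3 at 24 h r was 0.06 over 8 arrays. In that pool Padi4 had its highest value of the 9 (5.79) and Padi2 its lowest (6.004).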
